A study of Mus musculus with 2 samples.

Results

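The transcripts described here are 10 genes that carry iron into cells, store it, release it and sense it, in inguinal white adipose tissue of obese mice given entacapone or vehicle. They were taken by symbol (Tfrc, Fth1, Ftl1, Slc40a1, Slc11a2, Hmox1, Steap4, Ncoa4, Fbxl5 and Ireb2). All 10 were matched, each to 1 Ensembl gene, among the 37315 genes in the count tables, and all 10 were among the 13361 called measured here, those whose mean over both libraries reached 1 CPM (CPM is the standard per-library scaling of a gene's reads by library size). Poly(A) RNA was sequenced in 2 libraries. One came from vehicle-treated and one from entacapone-treated C57BL/6 males, 23 weeks of age, both with obesity induced by a high-fat diet. The labels give neither the dose nor its duration, nor whether a library stands for 1 mouse or several. Entacapone is a nitrocatechol drug of Parkinson disease that inhibits catechol-O-methyltransferase, and catechols as a class can bind ferric iron.

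Each group held 1 library, of 13620056 (vehicle) and 12979673 (entacapone) counted reads, so no difference below has a replicate check and no p-value is given. Every value compares these 2 libraries, not the treatments. The intervals are exact 95% counting intervals unless stated. They leave out variation between mice and dissections, and the reads carry no molecular identifiers. Adipocyte markers were abundant in both, with a summed level of 58662 CPM with vehicle and 60608 CPM with entacapone over 12 genes, none of them at 0. Of these 12, 6 were higher and 6 lower with an interval that excluded no difference, and none reached 1.5-fold. The summed levels of several other cell types differed more, but that of endothelial markers did not (1404 and 1411 CPM). Marker levels are given in the plot of marker lists and beside the results they touch. In bulk tissue, fewer cells of a type and less RNA per cell cannot be told apart.

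Cells take up iron bound to transferrin through the transferrin receptor, reduce it in the endosome and move it to the cytosol through a divalent metal transporter. Ferritin, a hollow shell of heavy and light chains, stores what is not used, and ferroportin exports it. Iron regulatory proteins bind hairpins in messenger RNA, the iron-responsive elements, when iron is scarce. Bound near the start of a message they block its translation, and bound behind the coding part of the transferrin receptor message they protect it from decay. Fat cells use iron for mitochondria and for differentiation, and macrophages of fat hold and recycle it.

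Hairpins that matched the search below, in 4 of the 10 genes, are shown because iron regulatory proteins are known to read such elements. GENCODE M21 coding transcripts (GRCm38, the same assembly as mm10) were searched on the transcript strand for an unpaired C, 5 bases, the 6-base loop CAGTGN and 5 bases that pair with the first run by Watson-Crick or G-U pairs. Each line gives 30 bases of the message, 5′ to 3′, with the loop in capitals.
Fth1, before the coding sequence: ttcctgcttcaaCAGTGCttgaacggaacc
Ftl1, before the coding sequence: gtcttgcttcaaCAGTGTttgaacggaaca
Slc40a1, before the coding sequence: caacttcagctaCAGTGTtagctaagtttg
Tfrc, first behind the stop codon: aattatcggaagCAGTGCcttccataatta
Tfrc, second: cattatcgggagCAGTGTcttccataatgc
Tfrc, the third: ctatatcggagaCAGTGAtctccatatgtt
Tfrc, the fourth: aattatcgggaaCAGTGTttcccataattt

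These sites lie in exons, in the 5′ UTR for the first 3 genes and in the 3′ UTR for Tfrc. The Fth1 window is at chr19:9982732-9982761 (plus strand), the Ftl1 window at chr7:45459778-45459807 (minus strand) and the Slc40a1 window at chr1:45925464-45925493 (minus strand). The 4 Tfrc windows that matched lie on the plus strand of chromosome 16, from chr16:32631219-32631248 to chr16:32631710-32631739. They are numbered among the matches only, and the message may hold elements that the search missed. The same search matched 31 of 20900 genes with an annotated 5′ UTR (0.148%) and 129 of 21022 genes with a 3′ UTR (0.614%), regions that differ in length between genes. The other 6 genes had no match to these letters in their annotated UTRs, but they too may hold elements that the search missed. A match is a run of letters and was not tested for binding.

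The transcripts of the storage gene Fth1 and the uptake gene Tfrc differed in opposite directions. The heavy ferritin chain Fth1 was 1.37-fold higher in the entacapone library, and the transferrin receptor Tfrc was 1.61-fold lower. Tfrc was the 1 member that reached a fold of 1.5 with an interval that excluded no difference. Over all 13361 genes, 7.90% were lower and 4.16% higher by that rule, so 1 lower and 0 higher of 10 is a share near the background. By counting error alone, 4 members were higher, 5 were lower and Ireb2 was neither, where 20.2% of all genes were higher and 21.1% lower. Passing this criterion depends on a gene's reads, and all genes include scarcer ones than any member. These shares are therefore not like for like. The median log2 ratio of the members was -0.18, beside 0.00 for all genes. Their summed level was 3271 CPM with vehicle and 3879 CPM with entacapone, carried mostly by the ferritin chains.

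**Figure D1:**
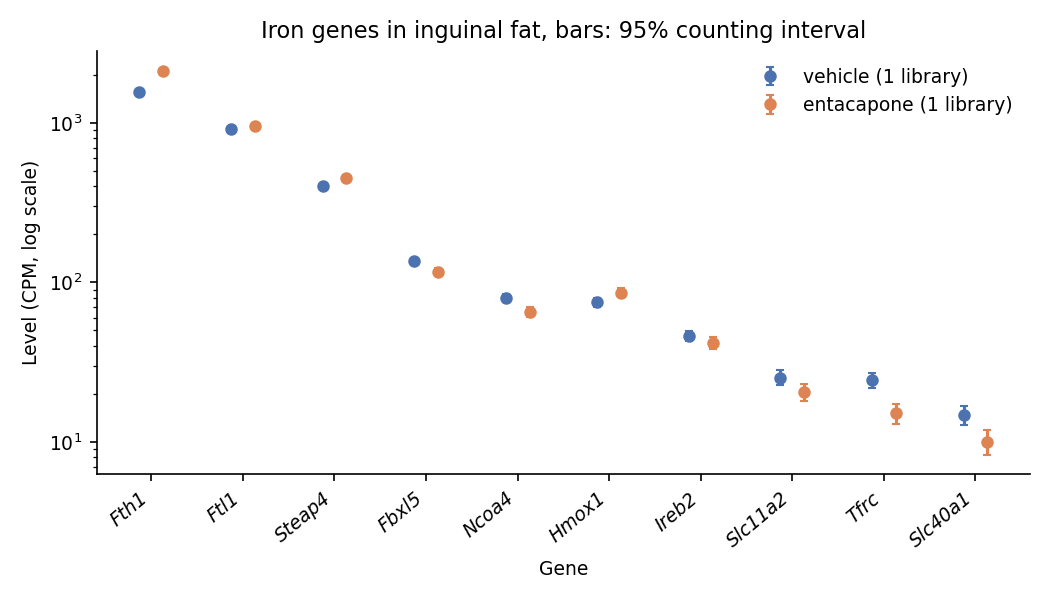
Level of each of the 10 iron genes in CPM (y axis, log scale) in the vehicle library (blue) and the entacapone library (orange); bars are exact 95% counting intervals, hidden by the points for abundant genes. The ferritin genes Fth1 and Ftl1 stand highest, and Tfrc and Slc40a1 lie lowest in the entacapone library at 15.1 and 9.92 CPM.

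Tfrc (ENSMUSG00000022797, chr16:32608920-32632794, plus strand) encodes transferrin receptor 1, which brings iron-loaded transferrin into the cell. It held 336 vehicle reads and 193 entacapone reads, or 24.3 CPM (21.8 to 27.1) and 15.1 CPM (13.0 to 17.4). The counting intervals of the 2 levels did not overlap. The log2 ratio of entacapone over vehicle was -0.69 (-0.95 to -0.43), and 7.47% of all genes had a lower ratio. Tfrc is also strongly expressed by red cell precursors. Of 5 measured red cell markers, 4 were at least 1.5-fold higher in the entacapone library, all globins, and the summed level of the list was 283 CPM (vehicle) and 468 CPM (entacapone). Alas2, also measured in that list, held 78 vehicle and 103 entacapone reads (log2 ratio 0.51, 0.07 to 0.95). The red cell membrane gene Epb42 had 1 read in each library, and Slc4a1 had 0 vehicle reads and 1 entacapone read. The part of red cells and their precursors in the Tfrc value was not tested.

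Slc11a2 (ENSMUSG00000023030, chr15:100387898-100425072, minus strand), the divalent metal transporter that lets endosomal iron into the cytosol, was lower too. It held 349 vehicle and 262 entacapone reads, at 25.3 CPM (22.7 to 28.1) and 20.5 CPM (18.1 to 23.1). The log2 ratio was -0.30 (-0.54 to -0.07), so the fold, 1.23, stayed under 1.5. Steap4 (ENSMUSG00000012428, chr5:7960457-7982213, plus strand), a metalloreductase abundant in fat that reduces ferric iron and copper, went the other way by a small amount. Its level was 401 CPM (390 to 411) in the vehicle and 448 CPM (437 to 460) in the entacapone library, on 5533 and 5737 reads. The log2 ratio was 0.16 (0.11 to 0.22). The 3 uptake genes did not share 1 direction.

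Fth1 (ENSMUSG00000024661, chr19:9980598-9985098, plus strand) encodes the ferritin heavy chain, whose ferroxidase site oxidises iron on entry into the shell. It was the most abundant member by reads, with 21431 in the vehicle and 27131 in the entacapone library. Its level was 1551 CPM (1531 to 1572) in the vehicle and 2120 CPM (2095 to 2145) in the entacapone library. The log2 ratio was 0.45 (0.42 to 0.48), and 8.15% of all genes had a higher one. Ftl1 (ENSMUSG00000050708, chr7:45457944-45459884, minus strand), the light chain that promotes mineral growth inside the shell, was nearly level at 917 CPM (901 to 933) and 955 CPM (938 to 972). It held 12667 and 12217 reads, with a log2 ratio of 0.06 (0.02 to 0.09). Scaled by total counts, the Ftl1 ratio was 0.02 and its interval held no difference.

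The 2 ferritin chains differed unequally, and this can be read inside each library without any scaling. There were 1.69 Fth1 reads for each Ftl1 read in the vehicle library and 2.22 in the entacapone library. The quotient of these ratios was 1.31, with a large-sample 95% interval from the 4 counts, used for all such quotients, of 1.27 to 1.35. Ferritin genes have near-identical copies elsewhere in the genome, and the rule used to count multi-mapping reads is not stated in the sources used here. The 10 listed Fth-type copies held 1 read in each library, from Fth-ps2 (vehicle) and Fthl17-ps3 (entacapone). Of 3 Ftl-type copies, Ftl1-ps1 held 120 and 117 reads and Ftl1-ps2 and Ftl2-ps held none. With the copies added, the log2 ratios of the parents were still 0.45 and 0.06. Exons annotated for Gm10252 on the opposite strand cover 26.5% of the Ftl1 exon bases, and the library kit does not mark strand, so reads there cannot be told apart.

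Ncoa4 (ENSMUSG00000056234, chr14:32159865-32179855, plus strand) is the receptor that delivers ferritin to lysosomes for release of its iron. It was lower, at 79.6 CPM (75.0 to 84.5) in the vehicle and 65.0 CPM (60.7 to 69.6) in the entacapone library, on 1100 and 832 reads. The log2 ratio was -0.29 (-0.42 to -0.16). Within each library, 100 Fth1 reads came with 5.13 Ncoa4 reads in the vehicle and 3.07 in the entacapone library. For Tfrc, 100 Fth1 reads came with 1.57 and 0.711 reads, a quotient of 0.454 (0.380 to 0.542). The receptor for uptake and the receptor for ferritin breakdown were both lower relative to the heavy chain, by more than the counting error. Fth1 had the highest ratio of the members, and 91.8% of all genes had a lower ratio than Fth1. Being lower relative to it is therefore not particular to these 2 receptors.

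**Figure D2:**
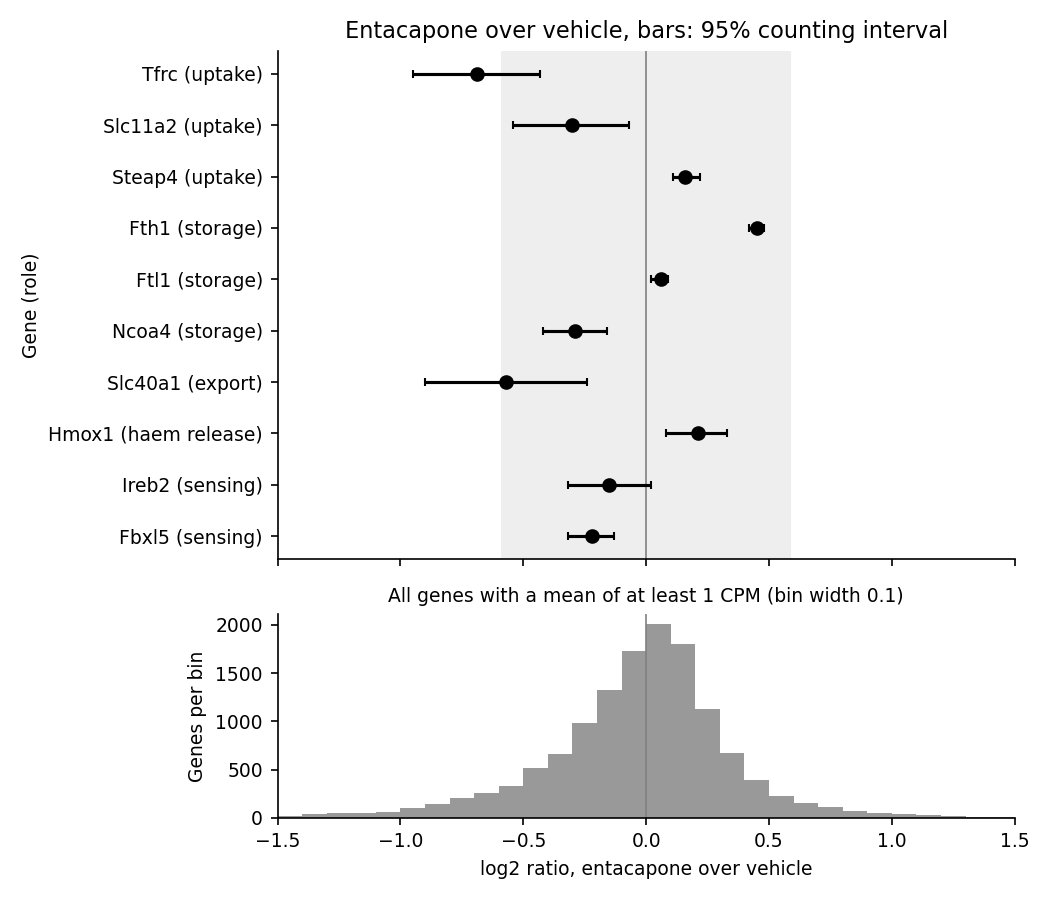
Upper panel, log2 ratio of entacapone over vehicle for each iron gene with its exact 95% counting interval (x axis), ordered by role, where the grey band marks differences under 1.5-fold. Lower panel, number of genes per ratio bin for all 13361 genes on the same x axis. Tfrc at -0.69 lies outside the band, Slc40a1 at -0.57 at its edge, and Fth1 at 0.45 is the highest member.

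Slc40a1 (ENSMUSG00000025993, chr1:45908068-45926523, minus strand) encodes ferroportin, the exporter of cellular iron. It had the fewest reads of the members, with 203 vehicle and 127 entacapone reads, at 14.7 CPM (12.7 to 16.9) and 9.92 CPM (8.27 to 11.8). The log2 ratio was -0.57 (-0.90 to -0.24), which is 1.48-fold lower and just under the fold used here. Scaled by total counts, the log2 ratio was -0.61 and passed that fold. Ferroportin is known as a gene of iron-recycling macrophages, and macrophage markers were also lower in the entacapone library. Of 18 macrophage markers, 14 were lower by at least 1.5-fold and Mertk was higher, with none at 0. Their summed level was 1832 CPM with vehicle and 972 CPM with entacapone (median log2 ratio -0.92). Their part in the values of Slc40a1 and Tfrc, which macrophages also express, was not tested. The ratio of Tfrc to Slc40a1 reads differed by less than the counting error, at 166 and 152 Tfrc reads per 100 Slc40a1 reads, with a quotient of 0.918 (0.691 to 1.22).

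Hmox1 (ENSMUSG00000005413, chr8:75093621-75100589, plus strand), the inducible haem oxygenase that frees iron from haem, was higher by a small amount. It stood at 74.9 CPM (70.4 to 79.6) in the vehicle and 86.4 CPM (81.4 to 91.7) in the entacapone library, on 1035 and 1106 reads. The log2 ratio was 0.21 (0.08 to 0.33). The constitutive haem oxygenase Hmox2 was lower on 489 and 341 reads (log2 ratio -0.41, -0.61 to -0.21), and 40.2% of its exon bases overlap Cdip1 on the opposite strand.

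Of the sensing genes, Fbxl5 was lower by a small amount and Ireb2 was within counting error. Fbxl5 (ENSMUSG00000039753, chr5:43744615-43821638, minus strand) encodes the iron-binding ligase subunit that marks iron regulatory proteins for breakdown when iron is plentiful. It was at 137 CPM (131 to 143) and 117 CPM (111 to 123), on 1892 and 1501 reads, with a log2 ratio of -0.22 (-0.32 to -0.13). Ireb2 (ENSMUSG00000032293, chr9:54863789-54912530, plus strand), which encodes iron regulatory protein 2, held 637 and 533 reads, or 46.1 CPM (42.6 to 49.8) and 41.6 CPM (38.2 to 45.3). Its log2 ratio, -0.15 (-0.32 to 0.02), was within counting error, although scaled by total counts it was -0.19 and beyond it. Aco1, which encodes iron regulatory protein 1 and doubles as cytosolic aconitase, was lower as well, at 215 CPM with vehicle and 181 CPM with entacapone (-0.25, -0.33 to -0.17). The reads of Ireb2 relative to Aco1 did not differ beyond counting error, with 21.4 and 23.1 Ireb2 reads per 100 Aco1 reads.

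Levels can be compared between genes only per length, and the order depends on the length used. With 1 principal coding transcript a gene, Fth1 was highest, at 1038 RPKM (CPM per kilobase of transcript) in the vehicle and 1419 RPKM in the entacapone library. Ftl1 followed at 947 and 986. With all annotated exons of a gene, which for Fth1 include longer forms, Ftl1 stood above Fth1 in both libraries, at 684 against 447 in the vehicle and 712 against 611 in the entacapone library. Steap4 came next by either length, at 127 and 142. By principal transcript, Fbxl5 and Hmox1 followed, with counting intervals that overlapped in the vehicle library (47.9 and 47.8) but not in the entacapone library (41.0 and 55.1). Ncoa4 stood at 19.6 and 16.0. Neighbours at the lower end could not be ordered by principal transcript. The intervals of Slc11a2 (8.35 and 6.77) and Ireb2 (7.99 and 7.22) overlapped in each library, as did those of Tfrc (4.97 and 3.08) and Slc40a1 (4.36 and 2.94). With all exons, Ireb2 stood above Slc11a2 and Tfrc above Slc40a1 in both libraries, with intervals that did not overlap. Those of Slc11a2 and Tfrc overlapped in the vehicle library.

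A wider list of 103 matched iron, haem and iron-sulphur genes held 95 measured genes. Of these, 4 were higher and 8 lower by at least 1.5-fold beyond counting error, shares close to those of all genes, and the median log2 ratio was 0.04. Among 13 other uptake genes, 2 were higher and 3 lower (median 0.04), where 4.16% of all genes were higher and 7.90% lower. Slc39a14, a transporter of iron not bound to transferrin, was highest at 17.2 CPM with vehicle and 27.7 CPM with entacapone (0.69, 0.45 to 0.94). Lcn2, which encodes the siderophore-binding protein lipocalin 2, was at 6.81 and 10.2 CPM (0.59, 0.20 to 0.99), right at the 1.5-fold limit. It missed that limit under total counts (0.55) and DESeq2 size factors (0.57), which leaves 3 higher genes in the wider list. Epithelia express Lcn2 as well, and 8 of 11 epithelial markers were at least 1.5-fold higher, with summed levels of 29.8 and 98.9 CPM and none at 0, but their part was not tested. The lowest was Cd163, at 88.6 and 49.0 CPM (-0.85), the haemoglobin scavenger receptor of macrophages and itself in the macrophage list. The part of the macrophage markers, whose values stand beside Slc40a1, was not tested. Steap3, an endosomal ferrireductase, was at 58.0 and 33.3 CPM (-0.80, -0.97 to -0.63). Tfr2, the second transferrin receptor, was at 76.9 and 45.8 CPM (-0.75, -0.90 to -0.60). These 2 genes are named because their values were seen. Per principal transcript, Tfr2 stood above Tfrc in both libraries, at 25.0 and 14.9 RPKM against 4.97 and 3.08. Transferrin itself, Trf, was within counting error at 116 and 119 CPM, although a gene model on the same strand, Gm20425, covers 63.5% of its exon bases and had 0 reads. Scara5, a ferritin receptor of stromal cells, was at -0.15 (-0.26 to -0.05). Of 12 fibroblast and progenitor markers 8 were at least 1.5-fold lower, with summed levels of 8407 and 5281 CPM and none at 0, and their part was not tested. Lrp1, a long transcript with the highest CPM of the uptake list, was at 0.16 (0.12 to 0.19).

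The 3 iron oxidases that work with ferroportin went both ways. Cp, ceruloplasmin, was higher at 161 against 115 CPM (0.48, 0.38 to 0.57). Heph, hephaestin, was lower at 138 against 165 CPM (-0.26, -0.35 to -0.17), and its relative Hephl1 was lower on 46 against 132 reads (-1.41, -1.93 to -0.92). Of 5 storage and delivery genes none reached 1.5-fold (median 0.27). The iron chaperone Pcbp2 (0.38, 0.28 to 0.48) had the highest ratio, Nubp1 (-0.25, -0.57 to 0.08) the lowest, and Glrx3 (0.37, 0.28 to 0.45) the highest CPM, a rank not corrected for length in this or the other lists. Pcbp2 shares 30.2% of its exon bases with Map3k12 and Nubp1 shares 36.9% with Tvp23a. Of 9 other sensing genes none reached 1.5-fold either (median 0.12). Cul1, a scaffold of the FBXL5 ligase, was at 0.29 and Hif1a at -0.39, while Epas1, a hypoxia factor, had the highest CPM of that list, 290 and 325.

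Genes of the hepcidin axis, which controls ferroportin protein, were lower by at least 1.5-fold in 2 of 10 (median -0.20), beside 7.90% of all genes. Hamp, the hepcidin gene, held 8 vehicle reads and 1 entacapone read, too few to show a difference at this depth (-2.89, -8.36 to 0.01). Tmprss6, a liver protease of this axis, was lowest on 40 and 9 reads (-2.04, -3.27 to -0.98), and Bmpr2, a bone morphogenetic protein receptor named because its value was seen, was at -0.63 (-0.90 to -0.36). Hfe2, which encodes hemojuvelin and is made in muscle and liver, was highest (0.50, 0.03 to 0.98), and Hfe was at 226 and 182 CPM. Of 10 measured haem breakdown and transport genes, 0 were higher and 2 lower by at least 1.5-fold (median -0.07). Over all genes, 4.16% were higher and 7.90% lower. The 2 lower genes encode plasma binders of haem and haemoglobin. Hpx, hemopexin, was at 20.6 CPM with vehicle and 3.05 CPM with entacapone (-2.75, -3.28 to -2.27). Hp, haptoglobin, which fat expresses strongly, was at 7386 and 4011 CPM (-0.88, -0.90 to -0.87). Hepatocyte markers were lower alongside Tfr2, Tmprss6, Hpx and Hp, all known as liver genes. All 15 measured ones of 16 were lower by at least 1.5-fold, their summed level was 466 CPM with vehicle and 102 CPM with entacapone, and none was at 0. Trf and Cp, which liver also expresses, were not lower (0.04, -0.06 to 0.14 and 0.48, 0.38 to 0.57). The part of hepatocytes in any of these values was not tested. Skeletal muscle markers, which moved with Hfe2, had a summed level of 1517 and 2353 CPM, with 10 of 14 measured genes higher by at least 1.5-fold and Tnnc2 at 0, and their part was not tested.

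**Figure D3:**
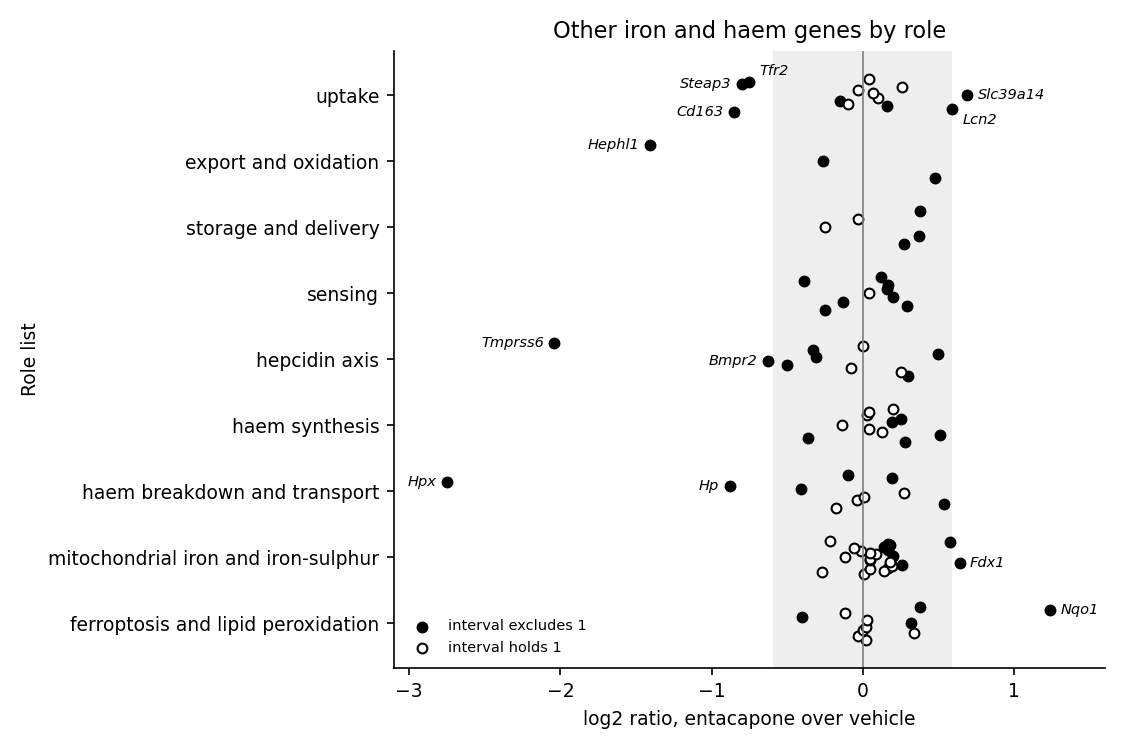
Log2 ratio of entacapone over vehicle (x axis) for the 95 other measured iron and haem genes, by role list (y axis); filled points have a counting interval that excludes no difference, and the grey band marks differences under 1.5-fold. The 12 genes outside the band that are beyond counting error are named, with Hpx at -2.75 lowest and Nqo1 at 1.24 highest.

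The 2 forms of the enzyme for the first step of haem synthesis differed in opposite directions. Alas1, the form of most tissues, was lower at 311 against 401 CPM (-0.36, -0.42 to -0.30), and Alas2, the form of red cell precursors, was higher on 103 against 78 reads (0.51, 0.07 to 0.95). Alas2 shares 12.9% of its exon bases with Apex2 on the opposite strand. Alas2 is also in the red cell list given beside Tfrc, and the part of red cells in its value was not tested. None of 11 haem synthesis genes reached 1.5-fold (median 0.12). Bach1, the haem-sensing repressor of Hmox1, was higher at 41.6 against 28.7 CPM (0.54, 0.35 to 0.73).

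Of 23 mitochondrial iron and iron-sulphur genes, 9 differed upward and 0 downward by more than counting error, where 20.2% of all genes were higher and 21.1% lower. As for the members, such shares depend on the genes' reads. Only 1 of the 23 reached 1.5-fold, upward, as did 4.16% of all genes, and the median was 0.14. That gene was Fdx1, ferredoxin, at 128 against 81.7 CPM (0.64, 0.53 to 0.75). The chaperone Hspa9 had the highest CPM of the list, 406 and 467 (0.20, 0.15 to 0.26), and the iron importer mitoferrin 1, Slc25a37, was at -0.22 (-0.47 to 0.04). Among genes of lipid peroxidation and ferroptosis, 1 of 11 reached 1.5-fold, upward, beside the same 4.16% of all genes (median 0.02). This was Nqo1, a quinone reductase and target of the stress factor NRF2, on 59 against 27 reads (1.24, 0.56 to 1.95). Gclc (0.00, -0.23 to 0.23) and Gclm (0.02, -0.16 to 0.19), also known as NRF2 targets, were within counting error. They are named because their values were seen. Gpx4, which reduces lipid peroxides, was at 1054 against 846 CPM (0.32, 0.28 to 0.35), Lpcat3 was lowest (-0.40, -0.50 to -0.29), and the cystine transporter gene Slc7a11 had 7 reads in each library.

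As a group, genes with the 5′ hairpin letters were close to level. Of 26 measured ones, the 3 members among them, 0 were higher and 1 was lower by at least 1.5-fold, and their median log2 ratio was 0.06. The 1 lower gene was Malt1 (-0.63, -0.92 to -0.33), named because its value was seen. Of 102 measured genes with the letters in the 3′ UTR, Tfrc among them, 2 were higher and 7 lower by that fold (median -0.05). Of all genes 4.16% were higher and 7.90% lower, and the shares in both hairpin groups were no larger.

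**Figure D4:**
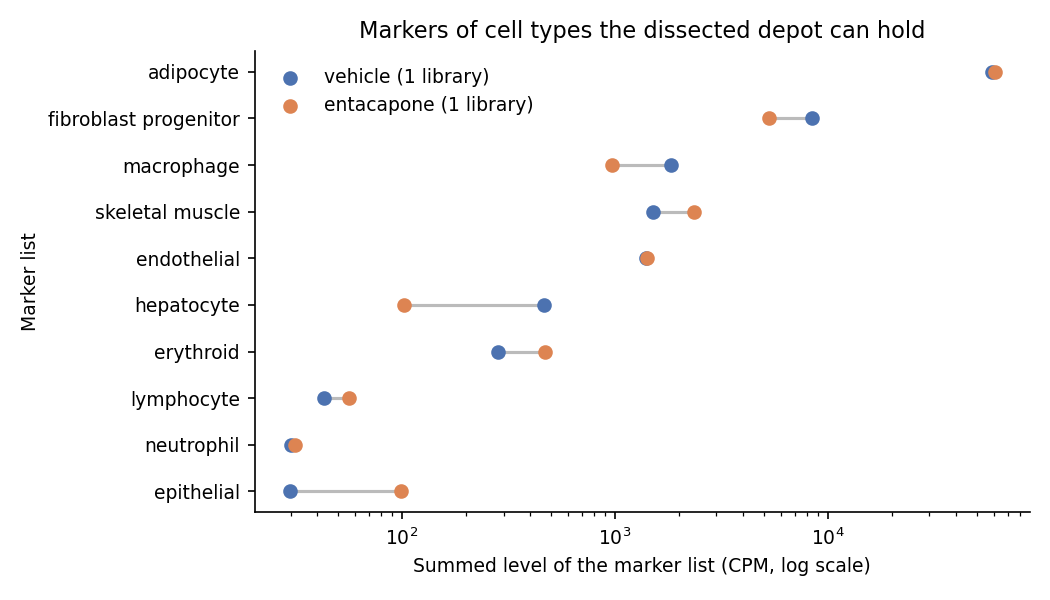
Summed level of each marker list in CPM (x axis, log scale) in the vehicle library (blue) and the entacapone library (orange), 1 library each, joined by a line. Adipocyte and endothelial sums nearly coincide, hepatocyte, macrophage and fibroblast sums are lower in the entacapone library, and epithelial, erythroid and skeletal muscle sums are higher.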

How the data were processed

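The authors deposited 1 table of raw counts a library, with a row for each Ensembl gene. The submitters' processing notes name TopHat2 2.1.1, HTSeq 0.6.0 and mm10, without the annotation release or counting mode. Per the labels' protocols, poly(A) RNA went into TruSeq RNA libraries, a kit that does not mark strand. Symbols, positions and lengths came from GENCODE M21, matched for 35449 of 37315 genes; the 1866 others (0.181% and 0.188% of reads) stayed in the library sizes. CPM values used TMM-scaled library sizes (edgeR 4.0.16). Ratio intervals came from exact Clopper-Pearson limits on a gene's reads in one library out of both; at 100 reads a library they span 1.33-fold to either side. List medians used a pseudocount of 0.5 CPM. In simulated libraries with counting error only, 95.5% of the intervals of 13361 genes held the true ratio. That is the variation the intervals assume, so this checks their calculation and says nothing of variation between mice or dissections.

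The members and lists were chosen with earlier results of these data known. All members were named; of each role list, the highest, the lowest and the gene of highest CPM and some preset genes; others are marked, and 1 gene that this rule names is not reported here. Alternatives were other scalings (DESeq2 1.42.0 among them), filters, folds, intervals and pseudocounts, and a thinned vehicle library. The listed symbols Skp1, Hjv and Ahsp matched no gene; Skp1a and Hfe2 were used for the first 2.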

Additional observations from a re-analysis of the deposited data

How the results depend on the processing

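With 1 library a group no replicate could be left out. No paired analysis was possible because each group held 1 library. Of 52 alternative values for single members, 50 stayed within the gene's own counting interval and none changed sign. The other two came from scaling by total counts, with Fth1 at 0.41 and Ftl1 at 0.02. Under that scaling, 2 members in place of 1 were at least 1.5-fold lower, Slc40a1 being added. That count was 0 with a fold of 2. With a looser fold, a ratio 25% above 1 in either direction, 1 member was higher (Fth1) and 2 lower. In the wider iron list, 1 gene was higher and 3 lower with a fold of 2, against 12 and 14 with the looser fold. The higher count of that list, 4, was 3 under total counts and DESeq2 size factors, without Lcn2, and 5 under upper-quartile scaling and the thinned library, with Slc25a28 added. Beyond counting error, 4 members were higher and 5 lower, against 4 and 4 with 99% intervals and 3 and 6 under total counts. The median of the members lay between -0.22 (total counts) and -0.13 (mean in place of median). The order of Fth1 and Ftl1 per length turned with the length used, an alternative chosen after seeing the data. Scarce transcripts such as Hamp and Slc7a11 limit what this depth can show.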
